A study of Mus musculus with 8 samples.

Results

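The maps of H3K9me1 and H3K9me2 in mouse embryonic fibroblasts (MEFs) were compared on chromosomes 5, 8, 9, 10, 11, 14, 15, 17 and 19, to ask how regions of one mark lie relative to regions of the other. All regions of both lists on these 9 chromosomes were used, 36774 of 42704 H3K9me1 regions and 27621 of 29119 H3K9me2 regions, or 64395 of the 98931 regions listed for H3K9me1, H3K9me2 and H3K9me3. The series holds 8 libraries of chromatin immunoprecipitation followed by sequencing (ChIP-seq) in 4 groups, namely input, H3K9me1, H3K9me2 and H3K9me3, with 2 replicates each. All groups came from the cells labelled WT, which per the study's methods were E1c fibroblasts, a clone grown from a sorted single cell, conditional for Eset1 and selected for high Cre activity. No treatment is named for them, and whether another clone would give the same maps was not tested.

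The deposited lists hold positions only, with 1 list for the 2 replicates of each mark. No height, depth or value per replicate could be given, and none of the shares below has a replicate error. Shares are instead given with their 95% Wilson interval, which covers counting error only, and with their lowest and highest value over the 9 chromosomes. The lists carry no expression, so the fibroblast identity of the cells could not be checked against marker genes. All borders lie on a grid of 750 bp bins, and an offset of region ends is therefore always a whole number of bins.

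Lysine 9 of histone H3 can carry 1, 2 or 3 methyl groups. In mouse cells the G9a/Glp pair (Ehmt2 and Ehmt1) is known for placing mono- and dimethylation, mostly along euchromatic chromosome arms, whereas Suv39h1 and Suv39h2 trimethylate H3K9 at pericentric repeats and Setdb1, also named Eset1, trimethylates it at retroelements. H3K9me2 is known as a mark of silent genes and broad domains, and H3K9me3 is bound by HP1 proteins. Each nucleosome has 2 copies of H3 and ChIP-seq averages over many cells, so a bin listed for both marks need not carry both on 1 molecule.

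Start sites of genes that the study gives as examples show the sequence at promoters of the marked states, while the difference between the states is read from the counts over all promoters further on. The 30 bases around the RefSeq start site (GRCm38.p6) are shown from 5′ to 3′ on the strand of the gene, with 15 bases before the start and CpG dinucleotides, the letters CG on either strand, in capitals.
Cacna1i: tcccCGaagacatttggtgtcagtataagg
Pou5f1: gggattggggagggagaggtgaaacCGtcc
Cdkn1a: aggtggggctgcttcagtgcagggtggtgg
Treml4: gttcttacatctcacagatgatgagactta
Olfr1431: actagcactgaagagatgattggggaaaga
Bbs9: gacttgCGcagtagcctcCGttgtaaaatg
They lie at chr15:80287223-80287252 (plus strand), chr17:35506017-35506046 (plus), chr17:29090964-29090993 (plus), chr17:48264280-48264309 (plus), chr19:12209553-12209582 (plus) and chr9:22475700-22475729 (plus). Over the whole 300-base promoter, from 250 bases before to 50 after the start, Cacna1i, which encodes a T-type calcium channel subunit, has 23 CpGs, Pou5f1, which encodes the pluripotency factor Oct4, has 11, and Cdkn1a, which encodes the cell cycle inhibitor p21, has 2. The bins of these 3 windows of 300 bases were listed for H3K9me1 only. Treml4, a receptor of myeloid cells, and Olfr1431, an olfactory receptor, have 2 CpGs each, as few as Cdkn1a, and their promoter bins were listed for H3K9me2 only. Bbs9, a subunit of the BBSome of primary cilia, has 23 CpGs and neither mark at its start site. The gene lists further on use a wider rule, any bin within 1 kb of any start site of the gene. By that rule the promoter of Cacna1i had both marks and that of Bbs9 H3K9me1 only, so states by the 2 rules are not interchangeable.

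Across 14308 RefSeq promoters of the 9 chromosomes, the median was 5 CpGs per 300 bases (quartiles 3 and 8) in the 2014 whose bins carried H3K9me1 only. It was 3 (1 and 6) in the 824 with H3K9me2 only, 3 (2 and 6) in the 1627 that met both marks, and 15 (4 and 26) in the 9843 with neither. At least 1 CpG was found in 95.1% of all promoters, and at least 10 in 46.1% of them. The share with at least 10 was 59.8% without either mark, 19.6% with H3K9me1 only and 14.2% with H3K9me2 only. Median counts by chromosome ran from 4 to 6 for H3K9me1 only and from 2 to 4 for H3K9me2 only, so these ranges meet at 4.

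H3K9me1 covered 28.8% of the bins of the 9 chromosomes and H3K9me2 23.7%, with 13.2% under both and 60.7% under neither. Coverage differed widely between chromosomes. H3K9me1 ran from 11.2% on chromosome 14 to 56.5% on chromosome 10, and H3K9me2 from 6.24% on chromosome 11 to 58.9% on chromosome 10. H3K9me1 covered more than H3K9me2 on 8 of the 9, with chromosome 10 the exception. Of the H3K9me1 bins, 45.7% were also H3K9me2 (13.1% on chromosome 11 to 74.2% on chromosome 10), and of the H3K9me2 bins, 55.7% were also H3K9me1 (30.2% on chromosome 14 to 71.1% on chromosome 10). Shared length over the product of the 2 covered shares was 1.93 in all. By chromosome it ran from 1.26 on chromosome 10 to 2.7 on chromosome 14, with a median of 1.69. The pooled value also takes in the differences in coverage between chromosomes.

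Most regions of either mark were either separate from the other mark or nested with it, and few shared both ends. Of the H3K9me2 regions, 8161 lay wholly inside 1 H3K9me1 region, its exact interval included. This was 29.5% (29 to 30.1) beside an H3K9me1 coverage of 28.8%. Coverage is the share for a single bin and not for a whole region of several bins, so it is given for scale and not as the share expected for nesting. Of the H3K9me1 regions, 9498 lay wholly inside 1 H3K9me2 region, or 25.8% (25.4 to 26.3) beside an H3K9me2 coverage of 23.7%. The nested share was higher for H3K9me2 on 5 of the 9 chromosomes and higher for H3K9me1 on the other 4. Both moved with coverage, from 11.9% on chromosome 14 to 41.4% on chromosome 10 for H3K9me2 and from 8.29% on chromosome 11 to 45.6% on chromosome 10 for H3K9me1.

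No overlap with the other mark was found for 19334 H3K9me1 regions (52.6%, 52.1 to 53.1) and for 11912 H3K9me2 regions (43.1%, 42.5 to 43.7). By chromosome, the separate share of H3K9me1 ran from 19.7% to 83.9% and that of H3K9me2 from 31.5% to 62.6%. An H3K9me1 region held at least 1 smaller H3K9me2 region in 4259 cases (11.6%), and these holders, with a median of 12 kb, made up 26.7% of the length covered by H3K9me1. The reverse holding was found for 3996 H3K9me2 regions (14.5%), with a median of 11.2 kb and 30.1% of the covered length. Ends crossed on 1 side for 9.06% of H3K9me1 and 11.1% of H3K9me2 regions. Only 439 intervals were the same in both lists, or 1.19% of H3K9me1 and 1.59% of H3K9me2 regions.

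**Figure D1:**
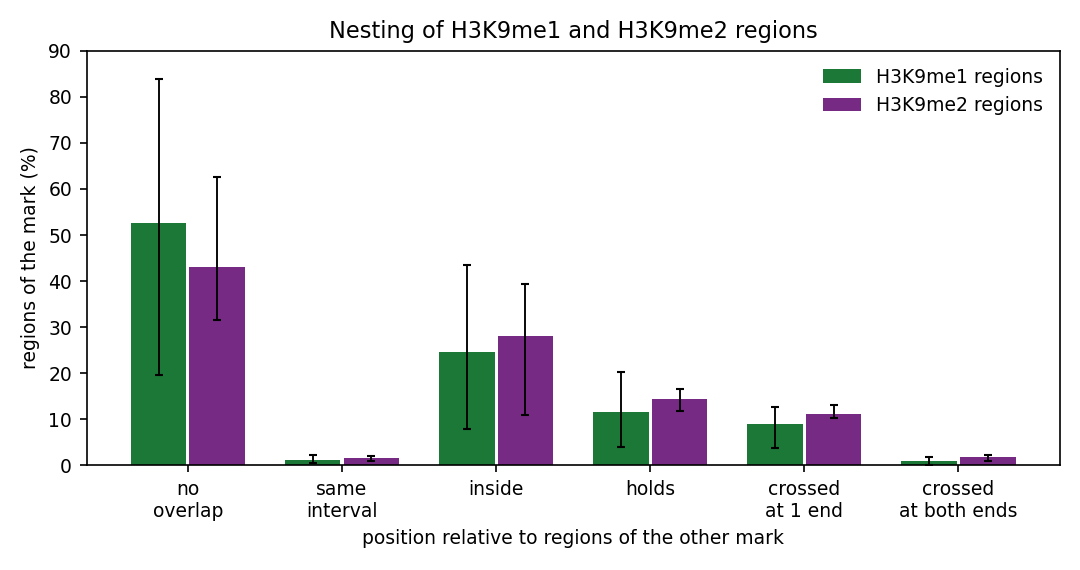
Share of regions (%, bars) of H3K9me1 and H3K9me2 in each position relative to the other mark, with thin lines from the lowest to the highest of the 9 chromosomes. Separate regions form the tallest bars (52.6% and 43.1%), and the lines, from 19.7% to 83.9% for separate H3K9me1 regions, are wider than the difference between the marks.

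Nested regions were small and lay well inside their holder. H3K9me1 regions inside H3K9me2 had a median of 3 kb in holders of 22.5 kb and filled 16.7% of them. H3K9me2 regions inside H3K9me1 had a median of 3.75 kb in holders of 19.5 kb and filled 25%. The nested region shared 1 end with its holder in 26.7% and 27.1% of cases, respectively, and no end in the rest.

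Position differed with width for both marks. Of H3K9me1 regions of 0.75 to 1.5 kb, 37.5% lay inside H3K9me2, against 13.9% of those over 22.5 kb. For H3K9me2 the same classes gave 34.5% and 18.4% inside H3K9me1. Wide H3K9me2 regions were rarely separate: only 4.56% of those over 22.5 kb met no H3K9me1, whereas 19.9% of H3K9me1 regions over 22.5 kb met no H3K9me2. In this widest class 43.8% of H3K9me1 and 43.7% of H3K9me2 regions held smaller regions of the other mark. A short region fits inside another more easily, and a wide one has more bins that can meet the other mark. The direction of these differences is therefore partly set by width itself, and the shares expected from width were not computed.

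H3K9me3 lay unevenly over the classes of nesting. It covered 1.72% of the length of H3K9me1 regions that were separate from H3K9me2 (0.888% to 5.62% by chromosome) and 84.9% of that of H3K9me1 regions inside H3K9me2 (43.2% to 93.1%). For H3K9me2 the contrast was smaller, with 67% in separate regions, 59.5% in those inside H3K9me1 and 81.3% in those holding H3K9me1. Separate regions hold only bins of their mark alone, and nested regions only bins with both marks. H3K9me3 was listed on 4.56% of bins with H3K9me1 alone, 70.6% with H3K9me2 alone and 71.6% with both. The contrast between separate and nested regions is therefore largely set by the class and is no separate result. When only regions that touch no H3K9me3 region were kept in both lists, 27.7% (26.8 to 28.6) of 10019 H3K9me2 regions still lay inside an H3K9me1 region, but 5.15% (4.88 to 5.44) of 23692 H3K9me1 regions lay inside an H3K9me2 region. The filter removed 17602 H3K9me2 and 13082 H3K9me1 regions, among them most holders, and left H3K9me1 on 14% and H3K9me2 on 3.65% of bins. Against these lower coverages the difference between the shares is not a measure of preference. On all 9 chromosomes the first share was the higher, at 14.9% to 31% against 2.96% to 8.34%. Of the H3K9me1 regions strictly inside H3K9me2, 81.6% touched an H3K9me3 region, and of the separate ones 4.74% did. The part of H3K9me3 itself in this was not tested.

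The widest regions of each class that meet a protein-coding gene show the arrangements (GRCm38). A shared interval of 59.2 kb, chr15:66412501-66471750, met Lrrc6, with H3K9me3 over 93.7% of it. H3K9me2 lay inside H3K9me1 at Zdhhc14, a palmitoyltransferase gene, where a region of 203 kb (chr17:5536501-5739750) shared its lower end with one of 233 kb. The same was seen at Fig4 and Gpr6, where H3K9me2 over 184 kb (chr10:41024251-41208750) lay in H3K9me1 over 268 kb, again with a common lower end.

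H3K9me1 lay inside H3K9me2 at Edar, the ectodysplasin receptor gene, with 176 kb (chr10:58584751-58761000) in 201 kb, and at Plekhg1 with 136 kb (chr10:3745501-3882000) in 140 kb. All of these nested regions had H3K9me3 over at least 98.4% of their length. H3K9me2 held 14 separate H3K9me1 regions over Efcab6 and Mpped1 (227 kb, chr15:83826001-84053250) and 14 over Kcnq3, a neuronal potassium channel gene (203 kb, chr15:66093751-66297000). H3K9me1 covered 86.8% and 86.3% of these H3K9me2 regions.

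The widest separate regions had contrasting H3K9me3. H3K9me1 without H3K9me2 reached 110 kb in Mad1l1, a spindle checkpoint gene (chr5:140017501-140127750), and 91.5 kb in Atp11a, a phospholipid flippase gene (chr8:12781501-12873000), with 0% under H3K9me3 in both. H3K9me2 without H3K9me1 reached 57 kb at Bcl11a, a transcription factor gene of blood and brain (chr11:24174001-24231000), and 51.8 kb at Glp1r, the GLP-1 receptor gene (chr17:30897751-30949500), with 92.1% and 100% under H3K9me3. Regions that crossed each other lay at Plg and the neighbouring Slc22a organic cation transporters, where 218 kb of H3K9me1 (chr17:12417001-12635250) and 242 kb of H3K9me2 (chr17:12417751-12659250) overlapped almost fully. Their lower ends were 1 bin apart.

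Region ends of both marks coincided more often than bin borders do at large. Of 55242 H3K9me2 ends, 5385 (9.75%, 9.5 to 10) fell on an H3K9me1 end of the same side, beside 2.64% of all bin borders that are such an end. From the other list, the same coincidences were 7.32% (7.14 to 7.51) of 73548 H3K9me1 ends, beside 1.98% of borders. By chromosome the share of H3K9me2 ends ran from 5.76% on chromosome 14 to 12% on chromosome 10. Ends of the opposite side, at which one mark stops where the other begins, made up 556 ends, or 1.01% of those of H3K9me2 and 0.756% of those of H3K9me1. A further 31.5% of H3K9me2 ends lay within an H3K9me1 region and 57.8% outside any. For H3K9me1 ends these shares were 26.8% and 65.1%.

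The level of one mark around the ends of the other was a step over a few bins. H3K9me1 was listed at 41.2% of the outermost bins inside H3K9me2 regions and at 32.5% of the first bins outside. It reached 61.8% at 7.88 kb and 76.4% at 26.6 kb inside, where only wide regions contribute, and stood at 26.4% at 3.38 kb and 26.3% at 29.6 kb outside. H3K9me2 around H3K9me1 ends went from 34.2% in the outermost bin inside to 27.6% in the first bin outside, with 72.6% at 26.6 kb inside and 20.7% at 29.6 kb outside. H3K9me3 rose with the other mark inside the regions, but farther outside it did not follow it. H3K9me3 was listed at 96.2% of positions 26.6 kb inside H3K9me2 ends and at 66.7% for H3K9me1 ends. From 3.38 kb to 29.6 kb outside H3K9me2 ends it fell from 24.2% to 13.1%, while H3K9me1 was flat. Over the same distances outside H3K9me1 ends, H3K9me3 was flat (22% and 22.3%), while H3K9me2 fell from 24.9% to 20.7%. Outside, each profile stops at the next region of the same mark, so far distances come only from wide gaps. Positions fell from 33826 at 3.38 kb to 7602 at 29.6 kb outside H3K9me2 ends. For H3K9me1 ends they fell from 41830 to 5788. Near and far values therefore describe different sets of ends. The part of H3K9me3 in the profiles was not tested.

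**Figure D2:**
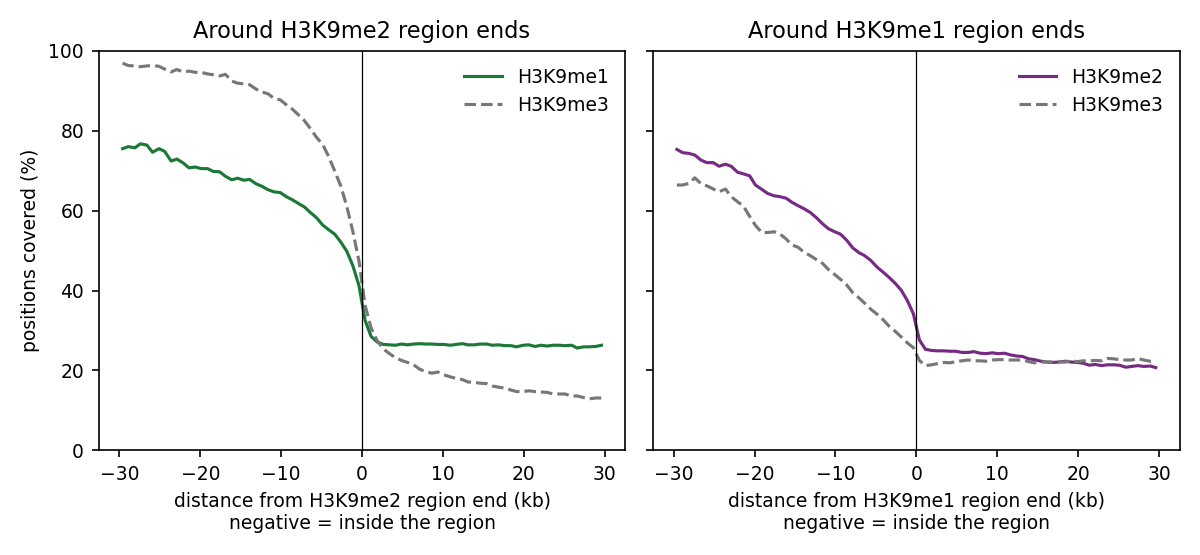
Share of 750 bp positions (%) listed for the other mark (solid) and for H3K9me3 (dashed) by distance in kb from the region ends of H3K9me2 (left) and H3K9me1 (right), up to the middle of the region inside and to the next region of the same mark outside. H3K9me1 goes from 41.2% to 32.5% across the H3K9me2 end and is flat beyond, near 26.4%.

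Offsets could be measured without ambiguity where 1 region of each mark overlapped only each other. There were 7479 such pairs with 14958 ends and a median width of 5.25 kb for either mark. H3K9me1 reached farther at 6155 ends (41.1%, 40.4 to 41.9), H3K9me2 at 5593 (37.4%, 36.6 to 38.2), and 3210 (21.5%) were on the same border. The median offset was 0 kb, with quartiles of 1.5 kb to either side. Ends were within 1 bin of each other in 45.4% of cases and within 3 kb in 74.1%. With offsets of 1 bin counted as the same border, H3K9me1 was farther at 27.8% of ends and H3K9me2 at 26.9%. Offsets over 15 kb were few, 225 with H3K9me1 farther and 171 with H3K9me2 farther. H3K9me1 reached farther at both ends of 24.1% of pairs and H3K9me2 at both ends of 20.8%. A further 18.1% were staggered, with one mark ahead at each end, and in 650 of these 1351 pairs H3K9me1 was ahead at the side of the lower coordinate.

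The small excess of H3K9me1 in the pooled offsets joined opposite orders. In 3317 pairs without H3K9me3, H3K9me1 reached farther at 53.8% of ends (52.6 to 55) and H3K9me2 at 26% (24.9 to 27). In 4162 pairs that touched an H3K9me3 region, H3K9me1 reached farther at 31% (30.1 to 32) and H3K9me2 at 46.5% (45.4 to 47.6). Each order held on 9 of the 9 chromosomes. H3K9me3 was listed on 70.6% of bins with H3K9me2 alone and 4.56% of those with H3K9me1 alone, so a stretch of H3K9me2 beyond H3K9me1 can itself place a pair among those that touch H3K9me3, and the split is partly set by the offset. When only the interval shared by both regions decided, which holds no such stretch, H3K9me1 was farther at 52.4% (51.2 to 53.5) and H3K9me2 at 28.3% (27.3 to 29.4) of the ends of 3677 pairs without H3K9me3 there. In 3802 pairs with H3K9me3 there the shares were 30.3% (29.3 to 31.4) and 46.1% (45 to 47.3). By this rule H3K9me1 was ahead on 8 of 9 chromosomes without H3K9me3 and H3K9me2 on 9 of 9 with it. With the first rule, without H3K9me3, H3K9me1 was farther at 42% to 59.3% of ends by chromosome and H3K9me2 at 20% to 37.8%. With H3K9me3, these ranges were 22.9% to 37.2% and 39.3% to 59.5%. Pooled over both kinds of pair, H3K9me1 was ahead on 8 chromosomes, and chromosome 14 had the reverse (35.6% against 47.4%). Both splits were made after the pooled offsets had been seen, and the part of H3K9me3 in the offsets was not tested.

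**Figure D3:**
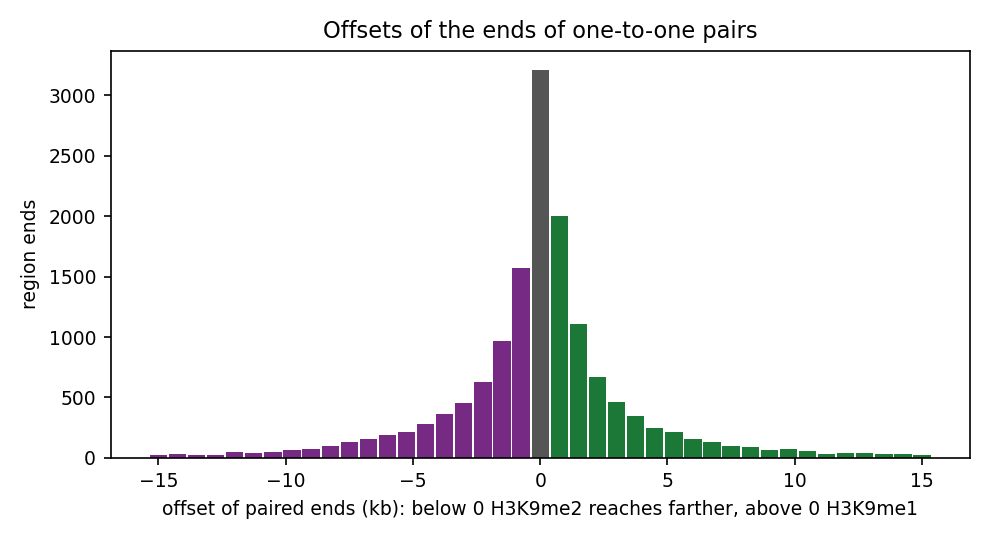
Number of region ends (vertical axis) by offset in kb between the paired ends of 7479 one-to-one pairs, drawn out to 15 kb either side. The bar at 0 holds 3210 ends, and the sides are close to mirror images, with 6155 ends at which H3K9me1 and 5593 at which H3K9me2 reached farther.

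Direct adjacency of the marks was found for a small share of separate regions. Of the 11912 H3K9me2 regions that met no H3K9me1, 277 (2.33%, 2.07 to 2.61) abutted an H3K9me1 region with no bin between, and the share by chromosome ran from 1.69% to 3.06%. The share moved with the width of regions and the definition of touching, to 1.41% with regions of at least 3 bins, 0.68% with regions of at least 5 kb and 6.01% when a gap of 1 bin counted as abutting. For scale, 7.22% of all bins free of H3K9me1 lay next to an H3K9me1 region. Of the 19334 separate H3K9me1 regions, 348 (1.8%, 1.62 to 2) abutted H3K9me2, and 5.07% of H3K9me2-free bins did. These bin shares count single bins, also in gaps too short for a wider region, and not whole regions chosen for meeting no other mark. They are therefore not the shares expected for abutting regions. Within 3 kb, an H3K9me1 region was found for 17% of separate H3K9me2 regions, and an H3K9me2 region for 13.2% of separate H3K9me1 regions.

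Separate regions lay nearer to their own mark than to the other. The median gap from a separate H3K9me2 region to the next H3K9me2 region was 3.75 kb, and to the nearest H3K9me1 region 25.5 kb (quartiles 6 and 107). Separate H3K9me1 regions were 3 kb from the next H3K9me1 and 30 kb from the nearest H3K9me2 region (8.25 and 83.2). The own mark was the nearer for 80.1% of separate H3K9me2 and 85.9% of separate H3K9me1 regions. Regions of one mark are cut by short gaps of the same list, which these distances count too. Separate regions were also chosen for meeting no region of the other mark, which leaves out every region that overlaps it. No such choice was made for the own mark. The comparison is therefore tilted towards the own mark by the selection, and a preference for it was not tested.

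When the chromosomes were divided into runs of 1 state, H3K9me1 alone made 32906 segments (158 Mb), H3K9me2 alone 26104 (106 Mb) and both together 21253 (133 Mb). Of 122849 borders between states, 556 (0.453%) passed directly from H3K9me1 alone to H3K9me2 alone. By contrast, 17385 (14.2%) passed from H3K9me1 alone to both and 19736 (16.1%) from H3K9me2 alone to both. Segments with both marks had H3K9me2 alone on both sides in 31.3% of cases and H3K9me1 alone on both sides in 26.5%. In 19% they lay between H3K9me1 alone and H3K9me2 alone, and in 2.07% they had no mark on either side. The widest segment with both marks was 218 kb, against 110 kb for H3K9me1 alone and 68.2 kb for H3K9me2 alone.

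Bases with H3K9me1 alone were mostly genic and those with H3K9me2 alone mostly intergenic. Of the bases with H3K9me1 alone, 57.2% were intronic, 4.37% exonic, 3.68% in 3′ UTRs and 24.5% intergenic. With H3K9me2 alone these shares were 36.8%, 1.26%, 0.603% and 57.4%. Over all assembled bases of these chromosomes they were 41.9%, 2.07%, 1.43% and 48%, so each mark alone lay on its own side of the background. Bases with both marks were in between, at 43.1%, 2.19%, 1.36% and 47.7%. The order of the 2 single states was the same on 9 of 9 chromosomes for introns, exons, 3′ UTRs and intergenic bases. For intergenic bases the chromosome ranges did not meet, at 19.4% to 29% with H3K9me1 alone and 50% to 66.9% with H3K9me2 alone.

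Promoters, here the bases within 1 kb of a transcript start in GENCODE M21, held 10.1% of the bases with H3K9me1 alone (9.37% to 11.8% by chromosome), 5.59% with both and 3.88% with H3K9me2 alone (2.51% to 6.6%). All assembled bases gave 6.61%. The higher share of H3K9me1 depended on which start sites were counted. With only the 5′ end of each gene counted, the shares were 3.95%, 3.83% and 3.08% beside 4.05% of all assembled bases, so H3K9me1 alone was then not above the background. With protein-coding genes only, all their start sites counted, they were 7.52%, 2.88% and 1.48% beside 4.29%.

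**Figure D4:**
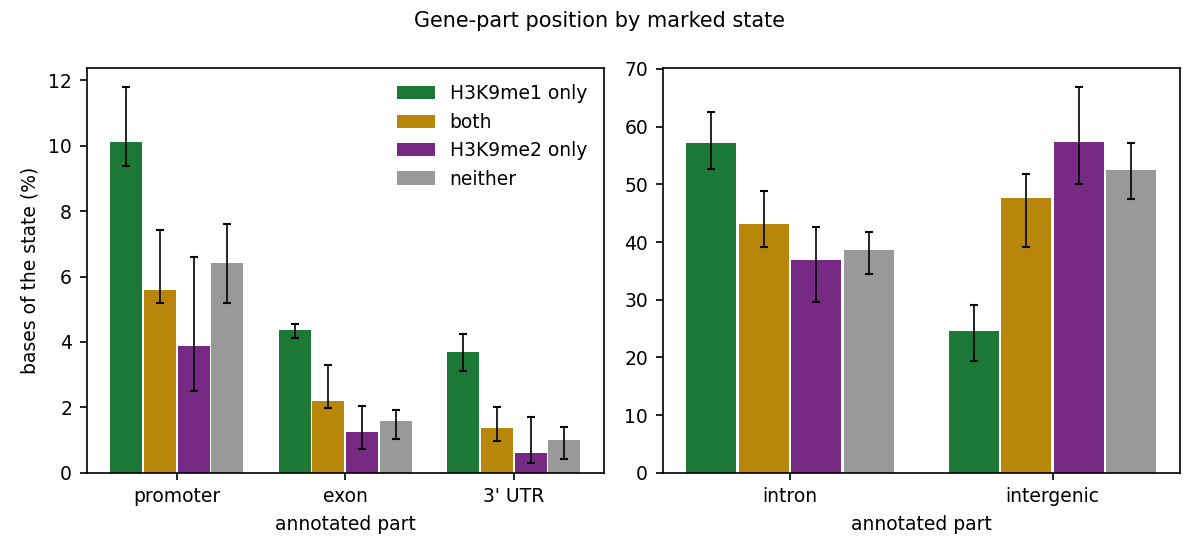
Share of the bases of each state (%, bars) in promoters, exons and 3′ UTRs (left) and in introns and intergenic sequence (right), with thin lines from the lowest to the highest of the 9 chromosomes. H3K9me1 alone is the most genic state (57.2% intronic) and H3K9me2 alone the most intergenic (57.4%), with bases carrying both in between.

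Nested regions differed in position from separate ones. H3K9me1 regions that met no H3K9me2 were 21.8% intergenic and 58.9% intronic, whereas those inside H3K9me2 were 53.7% and 39.6%. H3K9me2 regions that met no H3K9me1 were 58.7% intergenic and 35.6% intronic, and those inside H3K9me1 were 39.7% and 48.5%. The bases of a nested region all carry both marks, a state described above as in between. The shift towards the mark around it is therefore largely set by the class and is no separate result. Base composition followed the same order, with GC of 45.8% for H3K9me1 alone, 43.9% for both, 42.5% for H3K9me2 alone and 41.1% for neither. Soft-masked repeats made up 25.2%, 28.8%, 34.8% and 35.3% of these bases. H3K9me3 was listed for 4.56% of bins with H3K9me1 alone (1.11% to 13.8% by chromosome), 71.6% with both and 70.6% with H3K9me2 alone (46% to 85.2%). Position, composition and H3K9me3 moved together over the states, and their separate parts were not tested.

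Around protein-coding genes, H3K9me1 was low at the 5′ end and high towards the 3′ end, while H3K9me2 varied less. At the annotated 5′ end, 19.3% of 9632 genes (18.5 to 20.1) lay in an H3K9me1 bin, against 43.7% at 5 kb upstream and 43.3% at 5 kb into the gene or beyond it. The ratio of the start to 5 kb downstream was between 0.367 and 0.527 on the 9 chromosomes. H3K9me2 was listed at 13.3% of 5′ ends (12.7 to 14), 19.8% at 5 kb upstream and 16.8% at 5 kb downstream, with ratios from 0.674 to 1.09. The ratio was lower for H3K9me1 than for H3K9me2 on 9 of 9 chromosomes. H3K9me3 was listed at 13% of 5′ ends and at 14.5% of positions 5 kb downstream.

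Before the 3′ end, 50.1% of genes (49.1 to 51.1) were under H3K9me1 at 1.5 kb upstream of it, and 44.3% were at 4.5 kb beyond it. H3K9me2 stood at 17.7% and 18.2% at the same points. Along 5142 protein-coding genes of at least 15 kb, divided into 20 equal parts, H3K9me1 was listed at 39.8% of genes at 12.5% of the body and at 53.9% at 87.5% of the body. The values for H3K9me2 were 16.1% and 16.9%.

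**Figure D5:**
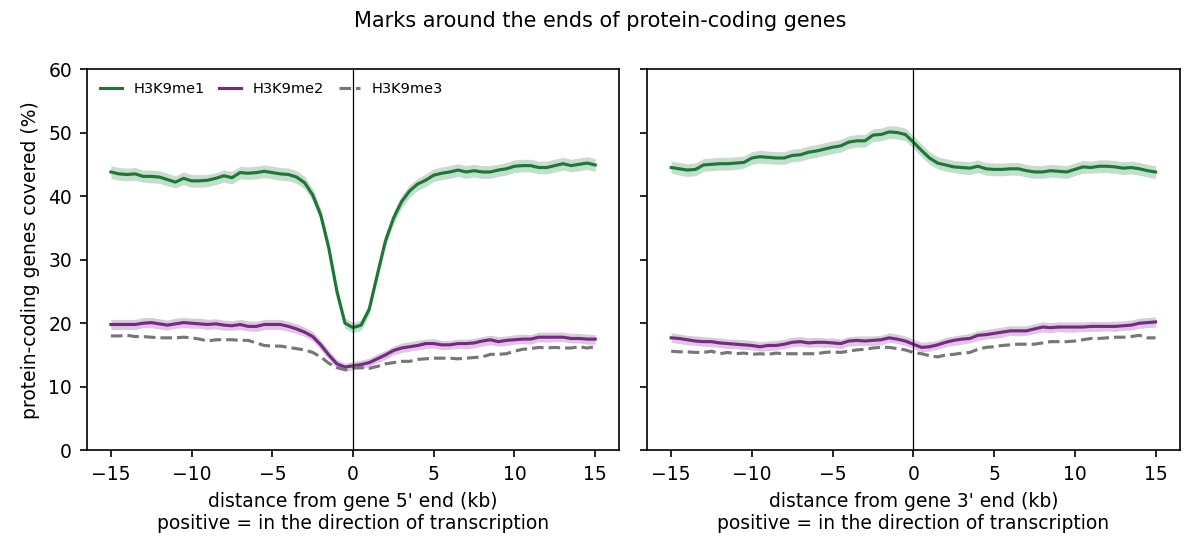
Share of 9632 protein-coding genes (%) in a bin listed for H3K9me1, H3K9me2 or H3K9me3 (dashed) by distance in kb from the annotated 5′ end (left) and 3′ end (right), with shaded 95% Wilson intervals. H3K9me1 dips to 19.3% at the 5′ end and reaches 50.1% just before the 3′ end, and H3K9me2 stays between 13.1% and 20.2%.

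A promoter was assigned H3K9me1, H3K9me2 or both by any bin within 1 kb of any of its start sites, so that the 2 marks of a promoter need not share a bin. Of 9632 protein-coding genes, 36.6% had H3K9me1 only, 4.87% H3K9me2 only and 17.8% both. H3K9me3 was also met by 4.36% of promoters with H3K9me1 only, 66.5% of those with H3K9me2 only and 68.2% of those with both. The gene lists below are read beside these shares. They describe which mark was listed and carry no test. A promoter may be assigned a mark that its start site lacks, and H3K9me1 was listed at 19.3% of annotated 5′ ends. Genes with more start sites have more chances to be assigned a mark, which was not taken into account.

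Among 12 genes the study names, 5 promoters had H3K9me1 only, 3 had H3K9me2 only, 2 had both and 2 had neither. The study chose some of them on these maps, so they are no independent evidence of a mark's position. Tcap, a sarcomere gene (chr11:98383811-98384953), was under H3K9me1 alone over its whole body (100%). Pou5f1 was under H3K9me1 alone over 71.4% and Bbs9 over 45.4%, with 53.2% of Bbs9 unmarked. The cell cycle genes Cdk1 and Cdkn1a had H3K9me1 alone over 16% and 42.9%. Treml4 (chr17:48264295-48275360) and Defb40, a beta defensin gene (chr8:18974940-18978256), were under H3K9me2 alone over 37.5% and 50%, and the rest of both was unmarked. Olfr1431 had H3K9me2 alone over 37.5% and both marks over another 37.5%. Cacna1i (chr15:80287238-80398279) carried both over 71.8% and H3K9me1 alone over 20.1%, with H3K9me1 alone at its start site. Tlr3, a receptor of double-stranded RNA, had H3K9me1 alone over 31.8% and H3K9me2 alone over 13.6%, with no bin of both. Actb and the homeobox gene Nkx6-1 had neither mark, and the promoter of Nkx6-1 met H3K9me3.

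Of 14 genes listed as H3K9 methylation machinery, Dnmt1 and Morc2a included, 8 promoters had H3K9me1 only and 6 had neither. At the start site itself, 1 of the 14 was listed for H3K9me1. No promoter of this list had H3K9me2. The 2 genes of the list with the widest H3K9me1 were the demethylase genes Jmjd1c (80.5% of the body under H3K9me1 alone) and Kdm4b (80.6%). Ehmt2, which encodes G9a, had H3K9me1 alone over 27.3% of its body and Setdb2 over 3.77%. Cbx1, which encodes HP1 beta, had neither. H3K9me2 lay alone over 17.9% of the body of Cdyl2 and 23.5% of that of Kdm4d. In Jmjd1c it was met only together with H3K9me1, over 2.79% of the body.

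Of 27 fibroblast matrix and cytoskeleton genes, 7 had H3K9me1 only at the promoter, 7 both, 13 neither and 0 H3K9me2 only. The start site itself was listed for H3K9me1 in 1 of the 27 genes and for H3K9me2 in 1. Both marks covered most of the body of the collagen VI genes Col6a1 (83.3%) and Col6a2 (84.2%), of Col18a1 (58.2%) and of the matrix gene Fbln1 (73.4%). H3K9me1 alone covered 74.2% of Timp3, an inhibitor of matrix metalloproteinases, and 67.2% of Col5a3. Col1a1, Sparc and Vcl had neither mark over the whole body. Of the 7 promoters with both marks, 4 lay on chromosome 10, where coverage was highest.

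Of 19 large neuronal genes, 12 promoters had neither mark, 4 both, 3 H3K9me2 only and 0 H3K9me1 only. Over the body, 18 had more H3K9me2 than H3K9me1 and 0 the reverse, but 5 of these had H3K9me2 on less than 1% of the body, which is a few bins. All protein-coding genes, of which 1167 had more H3K9me2 and 5866 more H3K9me1, have a median length of 16.8 kb against 1104 kb for the list. Among 192 protein-coding genes of at least 350 kb, 108 (56.2%) had more H3K9me2 and 64 (33.3%) more H3K9me1. Pcdh15, a cadherin of hair cells, had H3K9me2 alone over 55.6%, both over 27.9% and H3K9me1 alone over 0.822%. Ctnna3 had 33.6%, 35.2% and 1.19%. Sorcs3 and Grid1 had H3K9me2 alone over 30.7% and 30.8%. Most of the list was thinly marked, with a median of 95.8% of the body under neither mark. H3K9me3 was met by 15 of the 19 promoters.

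Of 443 olfactory receptor genes, 249 promoters (56.2%) had neither mark, against 40.7% of all protein-coding genes, while 42 had H3K9me2 only, 136 both and 16 H3K9me1 only. The states followed the chromosome, with both marks at 68 of 68 on chromosome 10 and neither at 127 of 129 on chromosome 9. Start sites were listed for H3K9me1 in 104 genes and for H3K9me2 in 136. H3K9me3 was met by 121 of the 178 promoters that had H3K9me2. Of 29 beta defensin genes, which encode antimicrobial peptides, 18 had H3K9me2 only, 2 both, 9 neither and 0 H3K9me1 only. H3K9me3 was met by 17 of the 20 with H3K9me2. Chromosome 8, where H3K9me2 covered 33.9% of bins, held 24 of the 29 genes and 17 of the 18 with H3K9me2 only. Members of such clusters are similar in sequence and lie side by side, so that reads may be shared between them and their states are not independent.

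Of 39 ribosomal protein genes, 32 had neither mark and 7 (17.9%) H3K9me1 only, which is below the 36.6% of all protein-coding genes. None had H3K9me2, and the start site was listed for H3K9me1 in 2 of the 39. Of 152 Zfp zinc finger genes, 90 had neither, 42 H3K9me1 only, 16 both and 4 H3K9me2 only. The longest genes of the last group were Zfp518b, Zfp454 and Zfp811, with H3K9me2 alone over 34.8%, 76.2% and 40% of the body. Zfp423, a long gene of this list, carried both marks over 71.9% of its 298 kb. At the start site, 8 of the 152 genes were listed for H3K9me1 and 9 for H3K9me2. Of 49 keratin genes, 20 promoters had both, 19 neither, 9 H3K9me1 only and 1 H3K9me2 only. Start sites of 24 of these genes were listed for H3K9me1 and of 19 for H3K9me2. All 20 with both were among the 24 on chromosome 15, where H3K9me1 covered 46.8% and H3K9me2 46.1% of bins, and 0 were among the 25 on chromosome 11, where they covered 16.9% and 6.24%. Krt75, Krt77 and Krt90 on chromosome 15 were under both marks over 100% of the body, while Krt80 in the same cluster had H3K9me1 alone over 75% and Krt7 over 74.1%.

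Within genes that held at least 1 bin of each mark alone, the order of the marks from 5′ to 3′ was even over all genes. H3K9me2 was more often nearer the 5′ end in protein-coding genes of at least 100 kb. H3K9me1 alone lay nearer the 5′ end in 701 of 1416 genes (49.5%, 46.9 to 52.1), from 40.6% to 53.6% by chromosome. Of 965 protein-coding genes, the share was 46.5% (43.4 to 49.7). This share differed with gene length. Under 20 kb it was 55.3% (45.7 to 64.6) of 103 genes, and from 20 to 50 kb 53.8% (47.4 to 60.1) of 234. From 50 to 100 kb it was 46.8% (40.4 to 53.4) of 222, and these intervals include equal shares. Among 406 genes of at least 100 kb it was 39.9% (35.3 to 44.7), with H3K9me2 nearer in 60.1%. With bins within 2 kb of a start site left out, 45.6% (42.3 to 49) of 840 protein-coding genes had H3K9me1 nearer the 5′ end. Direct switches from one mark to the other inside genes were 192, with H3K9me1 on the 5′ side in 52.1%.

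Of 106 protein-coding genes of at least 50 kb with at least 10% of the body under each mark alone, 43 had H3K9me1 and 63 H3K9me2 nearer the 5′ end. The extremes of H3K9me1 first were Togaram2, Bri3, A630023A22Rik, Hspa12a, Gm19410 and Wwox. In Wwox, an oxidoreductase gene of 913 kb (chr8:114439655-115352708), H3K9me1 alone was centred at 19.6% of the body from the 5′ end and H3K9me2 alone at 64.4%. In Bri3 these places were 31.6% and 83.9%. The extremes of H3K9me2 first were Cnnm1, Snap91, Gldc, Sez6l, Gadl1 and Zfhx3. In Zfhx3, a homeobox gene of 1019 kb (chr8:107942644-108961630), H3K9me2 alone was centred at 36.4% and H3K9me1 alone at 86.7%. Gldc, the glycine decarboxylase gene, had H3K9me2 alone centred at 24.3% and H3K9me1 alone at 78.4%, and Snap91, a synaptic coat protein gene, had 26.5% and 81.1%. These genes were picked as the extremes of the measure, and their places are a description of it.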

How the data were processed

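ChIP-seq of H3K9me1, H3K9me2 and H3K9me3 and input were made in WT (E1c) MEFs, 2 biological replicates each. Per the methods, the authors crosslinked and sonicated chromatin, used antibodies ab8896, ab1220 and ab8898, aligned paired-end reads to mm10 (GRCm38; bwa 0.7.1 per the submitters' processing notes) and called regions with histoneHMM. How replicates and input entered the call, and its threshold, is not given in the sources used here. The deposited lists, 1 per mark, hold genomic positions in 3 columns, with no score, and read depth is unknown. Per-sample value columns of other samples left unused were 0. Coordinates were taken as 1-based with the end base included.

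Overlaps, ends, gaps, states and gene parts were computed here per 750 bp bin with Python 3.11.15, NumPy 2.4.6 and Matplotlib 3.10.9, and tested on simulated data. Each base had 1 class (GENCODE M21), in which promoters took precedence over UTRs (5′ before 3′), these over other exons, exons over introns, and the remainder was intergenic. No region was filtered. Named are the study's example genes, list members (the longest first), the 2 widest regions per nesting class that meet a protein-coding gene, and the 6 most extreme genes in each order, except 1 region that is not reported here. Ehmt2, Col1a1 and Sparc were chosen after their values were seen. One listed fibroblast gene had no match under its symbol. Members and lists were chosen with earlier results of these data known. No p-values were computed, since the lists hold no value per replicate. Alternatives covered region width, joining, chromosomes, H3K9me3-free regions, a tolerance of 1 bin and the gene set.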

Additional observations from a re-analysis of the deposited data

How the results depend on the processing

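No paired analysis was possible because each mark has 1 list for both replicates, and for the same reason no replicate could be left out. A value counted as unmoved when it stayed within the 95% Wilson interval of the reported one. The 8 results are the shares of nested H3K9me2 and of nested H3K9me1 regions, of H3K9me2 ends on an H3K9me1 end, of paired ends with H3K9me1 farther, of separate H3K9me2 regions that abut H3K9me1, of promoter bases with H3K9me1 alone and with H3K9me2 alone, and of genes with H3K9me1 nearer the 5′ end. With regions of at least 3 bins, the moved values were 28.4% and 22.8% for nesting, 43.5% for farther ends and 1.41% for abutting. With regions of at least 5 kb they were 25.5% and 18.8%, 8.64% for shared ends, 45.6% and 0.68%. Joining regions 1 bin apart gave 25.1% for nested H3K9me1, 8.18% for shared ends and 42.8% for farther ends. Over all 21 main chromosomes nesting was 28.8% and 23%, and the promoter share of H3K9me2 alone 4.03%. Without chromosomes 10 and 15 nesting was 23% and 18.5%, shared ends 8.54%, abutting 2.02% and the promoter share of H3K9me2 alone 4.5%. Among regions that touch no H3K9me3, nesting was 27.7% and 5.15%, shared ends 8.11%, farther ends 53.8%, abutting 3.09% and the promoter share of H3K9me2 alone 5.36%. In that setting the gene order turned, with H3K9me1 nearer the 5′ end in 52.3% of 1013 genes (49.2 to 55.4), an interval that includes equal shares. Counting ends within 1 bin as shared gave 33.8% and 30.4% for nesting, 20.3% for shared ends, 27.8% for farther ends and 6.01% for abutting. H3K9me2 was then farther at 26.9% of paired ends, so the excess of H3K9me1 was nearly gone. With protein-coding genes only, promoter shares were 7.52% and 1.48% and the gene order 46.5%, and with the 5′ end of each gene only, promoter shares were 3.95% and 3.08%. Leaving out bins within 2 kb of a start site, added after the data were seen, gave 48.1% for the gene order, within the interval of the reported value. Splitting pairs by H3K9me3 in the shared interval, also added later, gave 52.4% for farther ends without it and turned the order with it, at 30.3%. The causes of these moves were not tested. Precision is limited by the bin of 750 bp, by unknown depth and call threshold, and by the lack of a value per replicate.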

Other observations

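Genes that make no protein differed in the mark met within 1 kb of a start site on the same 9 chromosomes. Any start site of a gene counted, so genes with more annotated start sites had more chances to meet a mark. The number of start sites was not matched between gene types, and its part in the differences below was not tested. Long intergenic RNA genes (2445) had H3K9me1 only at 17.8%, H3K9me2 only at 13.3% and both at 22.9%. Antisense RNA genes (1328), which often overlap protein-coding genes, had 34.9%, 5.42% and 13.8%, close to the protein-coding values of 36.6%, 4.87% and 17.8%. Processed pseudogenes (3600), which are retrotransposed copies of mRNAs, had 15.2%, 14.4% and 22.8%, and unprocessed pseudogenes (641), which arise by duplication, 7.64%, 12.5% and 21.4%. H3K9me2 only was thus more common than H3K9me1 only in the unprocessed pseudogenes. MicroRNA genes (831) had 30.9%, 5.78% and 15.8%. H3K9me3 was met by 34.1% of long intergenic RNA genes, 35.8% of processed and 37.8% of unprocessed pseudogenes, 19% of antisense RNA genes and 20.1% of protein-coding genes. Pseudogenes share sequence with their parents, and how reads with several matches were treated is not given in the sources used here.

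The other 12 main chromosomes held 5930 H3K9me1 and 1498 H3K9me2 regions. There 15.3% of H3K9me2 regions lay inside an H3K9me1 region and 5.26% of H3K9me1 regions inside an H3K9me2 region. Of the H3K9me2 ends, 7.64% fell on an H3K9me1 end of the same side. In one-to-one pairs H3K9me2 reached farther at 400 and H3K9me1 at 372 of 958 ends.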
